A study of Mus musculus with 2 samples.

Results

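The CaM kinase and calcineurin genes examined here are 10 genes whose products carry a calcium signal onto or off phosphorylated proteins in neurons. They are the 4 genes of calcium/calmodulin-dependent kinase II (CaMKII), Camk2a, Camk2b, Camk2d and Camk2g, with the CaMKII inhibitor Camk2n1. The others are the kinase genes Camk4 and Camkk2 and the calcineurin genes Ppp3ca, Ppp3cb and Ppp3r1. They were taken by gene symbol from the posterior transcript table and joined to the anterior gene table by gene identifier without its version. All 10 were found among the 53055 genes present in both tables. All 10 also passed the filter that left 13339 protein-coding genes for comparison, an FPKM (fragments scaled to gene length and depth) of at least 1 in either library.

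Polyadenylated RNA of mouse brain tissue was sequenced in 2 libraries as part of a study on imaging transcript isoforms in tissue sections. The posterior sample came from tissue matched in position to posterior imaged slices, and the anterior sample from tissue matched to anterior ones. Both are labelled wild type, male, strain C57BL/6J, aged 14 weeks, with no treatment or transgene named. Each position had 1 library, so no p-value is given and the values compare these libraries and not the positions. Position, library and quantification differed together and cannot be told apart, and the labels do not say whether the tissues came from different animals. Intervals below are 95% and cover counting error only.

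Calcium that enters a neuron binds calmodulin, which then activates both CaMKII and calcineurin. CaMKII is a holoenzyme of many alpha, beta, gamma and delta subunits whose kinase domains can phosphorylate each other and stay active after calcium falls, and it is very abundant at excitatory synapses. Camkk2 encodes a kinase that phosphorylates and activates CaM kinases I and IV, of which the nuclear kinase CaMKIV (Camk4) phosphorylates the transcription factor CREB. Calcineurin is a phosphatase made of a catalytic A subunit and a calcium-binding B subunit, and its targets include the NFAT transcription factors.

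The posterior sample held 147138183 estimated fragments and the anterior sample 43558839 recovered fragments, so the posterior one was 3.38 times as deep. Lengths also differed: posterior values were scaled to effective transcript lengths weighted by abundance, and anterior values to the length of all annotated exons of a gene joined. For the 10 genes the anterior length was between 1.07 times (Camk2n1) and 7.32 times (Camk2d) the posterior one. Differences are therefore given first as fragment shares, the fragments of a gene scaled to a total of 1000000 in protein-coding genes, which use no length and are written as CPM. They are log2 of posterior over anterior after adding a pseudocount of 0.5, with the median gene set to 0, a shift of 0.00298 on the fragment share scale and 0.63 on the FPKM scale. Cortical excitatory neuron markers had a summed fragment share of 1404 CPM in the posterior sample and 2400 in the anterior sample, and 4 of the 8 were higher in the anterior sample by a factor of at least 2. Thalamic markers summed to 699.6 in the posterior sample and 140.0 in the anterior sample (6 of 6 past the same factor in the posterior sample), and choroid plexus markers to 705.9 and 3.02 (5 of 5). Pan-neuronal markers summed to 6005 CPM in the posterior sample and 8054 CPM in the anterior sample, with 0 of 6 past that factor. Hippocampal markers summed to 619.2 CPM in the posterior sample and 213.3 CPM in the anterior sample (5 of 6 past it in the posterior sample), oligodendrocyte markers to 6367 and 3350 CPM (1 of 5) and striatal markers to 353.7 and 193.6 CPM (3 of 7). The part of this makeup in the differences below was not tested, and in bulk tissue fewer cells of a type and less RNA per cell cannot be told apart.

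All but 1 of the 10 genes took a smaller fragment share in the posterior sample than in the anterior sample. The exception was Camk2d, and the widest gap was that of Camk4. The median log2 difference of the 10 genes was -0.30, against 0.00 over all 13339 genes with an interquartile range of -0.21 to 0.32. At the 2-fold level, 0 of the 10 were higher in the posterior sample, against a background of 8.19% of genes. In the anterior sample 1 of the 10 was higher by that measure, Camk4, against a background of 1.84%. On the FPKM scale the median was -0.18, with 5 genes above 0 and 5 below. There 1 gene passed the 2-fold level in the posterior sample (Camk2d; background 14.5%) and 2 in the anterior sample (Camk2n1 and Camk4; background 7.11%). Together the 10 genes held 0.746% of the protein-coding fragments in the posterior sample and 1.02% in the anterior sample.

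**Figure D1:**
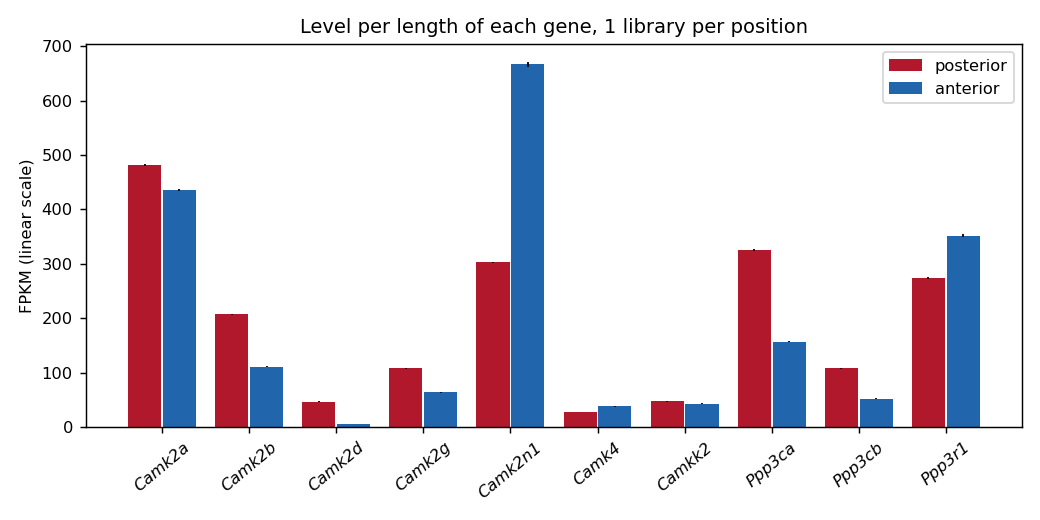
FPKM of each of the 10 genes, with the posterior sample at the left and the anterior sample at the right of each pair. Intervals are 95% counting intervals. Camk2a led in the posterior sample at 482 FPKM and Camk2n1 in the anterior sample at 667 FPKM, and Camk2d was the lowest of the anterior values at 5.19 FPKM.

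Camk2a encodes the alpha subunit, the main CaMKII subunit of forebrain excitatory neurons (ENSMUSG00000024617, GRCm38/mm10 chromosome 18, 60925618 to 60988152, plus strand). It had 482 FPKM (480 to 483) in the posterior sample, the highest of the 10, and 436 FPKM (433 to 438) in the anterior sample. The fragments behind these values were 317786 in the posterior sample and 118793 in the anterior sample, or 2363 and 2799 CPM. Camk2a ranked 74 among protein-coding genes by FPKM in the posterior sample and 40 in the anterior sample, on the unlike lengths described above. Its share was 1.18-fold higher in the anterior sample (1.18 to 1.19), a log2 difference of -0.25, and 21.5% of genes had a lower one. Camk2a thus lay just below the interquartile range of all genes by share. Its log2 difference in FPKM was -0.49 after centring on the median gene, although the FPKM itself was higher in the posterior sample.

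Camk2b encodes the beta subunit, which also binds F-actin (ENSMUSG00000057897, chromosome 11, 5969644 to 6066362, minus strand). It had 207.5 FPKM (206 to 209) in the posterior sample and 111 FPKM (110 to 112) in the anterior sample. It had 779 CPM in the posterior sample and 870 CPM in the anterior sample, a log2 difference of -0.16. The direction of Camk2b depended on the scale: the share was 1.12-fold higher in the anterior sample (1.10 to 1.13), whereas the log2 difference in FPKM was 0.27.

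Camk2d encodes the delta subunit, the main CaMKII subunit of heart (ENSMUSG00000053819, chromosome 3, 126596302 to 126846326, plus strand). It had 46.7 FPKM (46.0 to 47.3) in the posterior sample and 5.19 FPKM (5.04 to 5.35) in the anterior sample. The fragments were 21113 in the posterior sample and 4265 in the anterior sample, or 157 and 101 CPM. Camk2d was the one gene of the 10 with a higher share in the posterior sample, by 1.56-fold (1.51 to 1.61), a log2 difference of 0.64. Of all genes, 86.1% had a lower difference by share. The FPKM difference was much wider, at 2.42 on the log2 scale, with 97.8% of genes lower. The length used for Camk2d was 3074 bases in the posterior sample and 22493 bases in the anterior sample, the greatest disparity of the 10, so only the share was free of it.

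Camk2g encodes the gamma subunit, known in neurons for shuttling calmodulin to the nucleus (ENSMUSG00000021820, chromosome 14, 20734875 to 20794088, minus strand). It had 108 FPKM (107 to 109) in the posterior sample and 63.6 FPKM (62.6 to 64.6) in the anterior sample. By share it had 228.5 CPM in the posterior sample and 350 CPM in the anterior sample. The share was 1.53-fold higher in the anterior sample (1.503 to 1.563), a log2 difference of -0.62, with 4.96% of genes lower. In FPKM the log2 difference of Camk2g was 0.13, the opposite direction.

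Camk2n1 encodes a small protein that inhibits CaMKII (ENSMUSG00000046447, chromosome 4, 138454314 to 138460123, plus strand). It had 303 FPKM (301 to 304) in the posterior sample and 667 FPKM (663 to 671) in the anterior sample. The fragments were 185192 in the posterior sample and 108189 in the anterior sample, or 1377 and 2549 CPM. Camk2n1 ranked 164 among protein-coding genes in the posterior sample and 15 in the anterior sample. Its share was 1.85-fold higher in the anterior sample (1.84 to 1.86), a log2 difference of -0.89, with 2.29% of genes lower. Its FPKM gave -1.77, after centring on the median gene. Camk2n1 has 1 annotated transcript, and it was higher in the anterior sample on both scales.

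**Figure D2:**
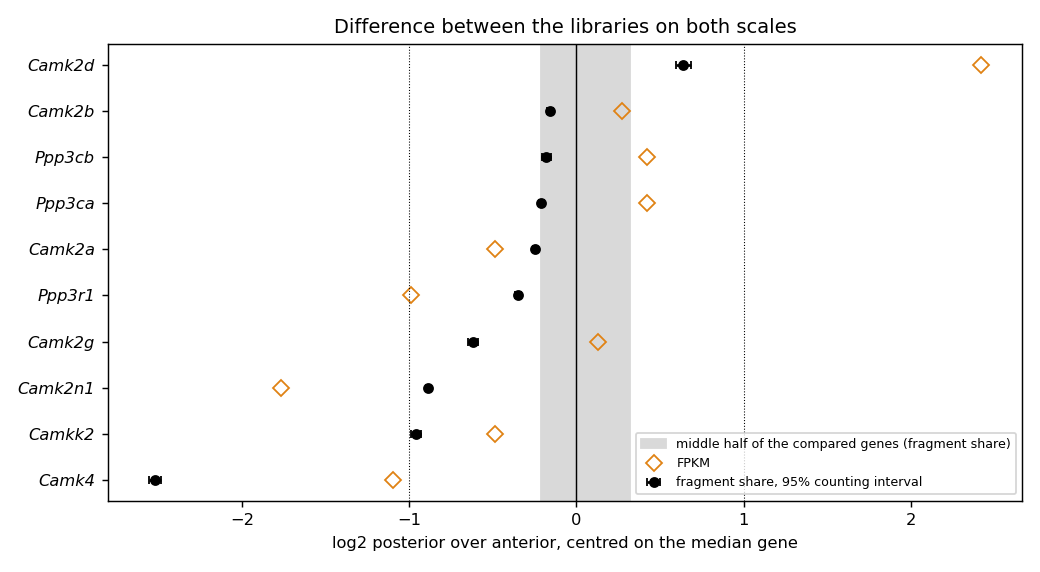
Centred log2 difference of posterior over anterior for each of the 10 genes, by fragment share and by FPKM. The grey band is the interquartile range over all 13339 protein-coding genes compared, by fragment share only. By FPKM that range was -0.51 to 0.61. On the fragment share scale Camk2d lies above 0 at 0.64 and the other genes lie below, down to -2.52 for Camk4, while Camk2b, Camk2g, Ppp3ca and Ppp3cb change sign on the FPKM scale.

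Set against its target, Camk2n1 was less abundant than Camk2a in the posterior sample and more abundant in the anterior sample by FPKM, with ratios of 0.629 and 1.53. With anterior fragments divided by the posterior lengths the anterior ratio was 0.982, so the lead of the inhibitor in the anterior sample rested on the length used. In fragments alone the ratio of Camk2n1 to Camk2a was 0.583 in the posterior sample and 0.911 in the anterior sample. Against all 4 CaMKII genes summed, the fragments of Camk2n1 came to 0.390 in the posterior sample and 0.619 in the anterior sample. Both ratios were thus lower in the posterior sample in fragments and by FPKM. On the shared lengths they were lower too. That comparison divides the same fragments by lengths common to both libraries, so it is no separate check.

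Among the 4 CaMKII genes, Camk2a made up 57.1% of the summed FPKM in the posterior sample and 70.8% in the anterior sample. Dividing the anterior fragments by the posterior lengths gave Camk2a 57.2% in the anterior sample. The gap in the Camk2a share was thus no longer seen on shared lengths. Camk2b held 24.6% in the posterior sample, against 23.2% on shared lengths in the anterior sample. Camk2g held 12.8% in the posterior sample, against 10.3% of FPKM and 16.6% on shared lengths in the anterior sample. Camk2d held 5.53% in the posterior sample, against 0.844% of FPKM and 2.995% on shared lengths in the anterior sample. Camk2d kept a larger share in the posterior sample under both lengths, and the order of the 4 genes on shared lengths was the same in both libraries: Camk2a, Camk2b, Camk2g, Camk2d.

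**Figure D3:**
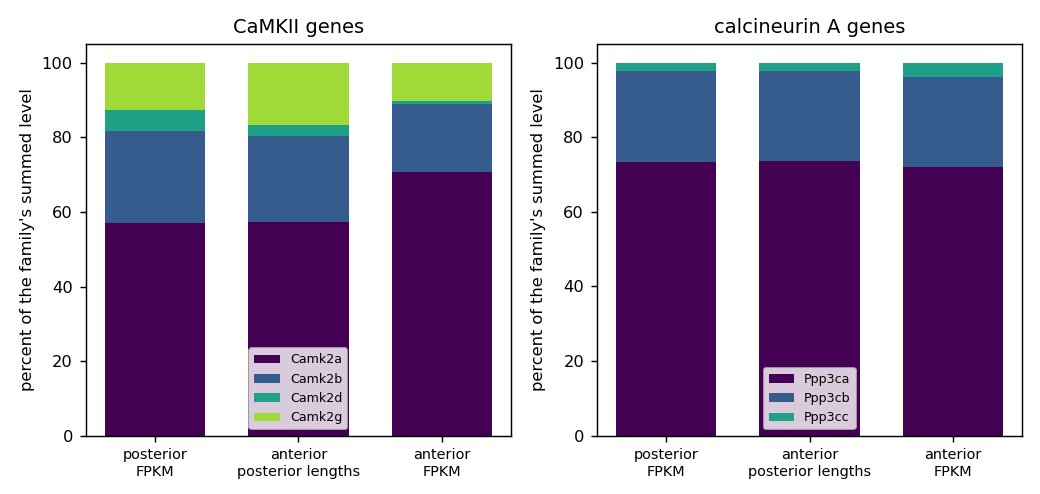
Percent of the summed level of the 4 CaMKII genes, and of the 3 calcineurin A genes, held by each gene in the posterior sample by FPKM, in the anterior sample with posterior lengths, and in the anterior sample by FPKM. Camk2a holds 57.1%, 57.2% and 70.8% in these bars, while Ppp3ca holds 73.4%, 73.7% and 72.1%.

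Camk4 encodes CaMKIV, a mainly nuclear kinase that phosphorylates CREB (ENSMUSG00000038128, chromosome 18, 32939041 to 33195767 in the anterior table, plus strand). It had 27.3 FPKM (26.8 to 27.9) in the posterior sample, the lowest of the 10, and 38.02 FPKM (37.5 to 38.6) in the anterior sample. The fragments were 9431 in the posterior sample and 17124 in the anterior sample, although the posterior sample was deeper. By share this gave 70.1 CPM in the posterior sample and 403 CPM in the anterior sample. The share was 5.75-fold higher in the anterior sample (5.61 to 5.90), a log2 difference of -2.52, and 0.360% of genes had a lower one. In FPKM the log2 difference of Camk4 was -1.10, with 4.98% of genes lower.

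Camk4 was the only gene of the 10 whose anterior model differed from GENCODE M21. All 102 transcripts of the 10 genes in the posterior table had the lengths given there. The anterior length of Camk4 was 12331 bases, against 3259 bases for its joined exons in GENCODE M21, a mouse annotation of the same build. The anterior model ended 4539 bases beyond the GENCODE gene. For the other 9 genes the anterior length equalled the GENCODE exons exactly, as it did for 94.9% of the genes compared. How many of the 17124 anterior Camk4 fragments fell in the added sequence was not tested, so the 5.75-fold gap is given with that limit. Without Camk4, 0 of the 9 remaining genes were 2-fold higher in the anterior sample by share, against 1.74% of genes with equal models. By FPKM Camk2n1 passed that level, at -1.77 on the log2 scale.

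Camkk2 encodes the kinase upstream of CaMKI, CaMKIV and AMPK (ENSMUSG00000029471, chromosome 5, 122731170 to 122779409, minus strand). It had 47.4 FPKM (46.8 to 48.0) in the posterior sample and 42.9 FPKM (42.3 to 43.5) in the anterior sample. By share it had 207 CPM in the posterior sample and 403 CPM in the anterior sample. The share was 1.95-fold higher in the anterior sample (1.91 to 1.98), a log2 difference of -0.96, with 1.99% of genes lower. In FPKM the log2 difference was -0.49 after centring on the median gene, although the FPKM itself was higher in the posterior sample. Camkk2 thus lay just inside the 2-fold line by share, and for neither Camkk2 nor Camk4 did more than 1.99% of genes have a lower difference on that scale.

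The 3 calcineurin genes had log2 share differences between -0.35 and -0.18, all toward the anterior sample. Ppp3ca encodes the A alpha catalytic subunit, the main one in brain (ENSMUSG00000028161, chromosome 3, 136670124 to 136937727, plus strand). It had 325 FPKM (324 to 327) in the posterior sample and 157 FPKM (155 to 158) in the anterior sample. By share it had 1166 CPM in the posterior sample and 1346 CPM in the anterior sample, so its share was 1.16-fold higher in the anterior sample (1.14 to 1.17). Ppp3ca had a log2 difference of -0.21 by share and 0.42 by FPKM, so its direction changed with the scale.

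Ppp3cb encodes the A beta catalytic subunit (ENSMUSG00000021816, chromosome 14, 20499364 to 20546573, minus strand). It had 108 FPKM (107 to 109) in the posterior sample and 52.1 FPKM (51.3 to 52.9) in the anterior sample. By share it had 348 CPM in the posterior sample and 395 CPM in the anterior sample, and its share was 1.13-fold higher in the anterior sample (1.11 to 1.15). Like Ppp3ca, Ppp3cb changed direction with the scale, at -0.18 by share and 0.42 by FPKM (log2). The ratio of Ppp3ca to Ppp3cb in FPKM was 3.01 in the posterior sample and 3.01 in the anterior sample. In fragments it was 3.35 in the posterior sample and 3.41 in the anterior sample. With Ppp3cc, the A gamma gene, at 9.57 FPKM in the posterior sample and 8.54 FPKM in the anterior sample, Ppp3ca held 73.4% of calcineurin A FPKM in the posterior sample and 72.1% in the anterior sample. The posterior over anterior quotient of the Ppp3ca to Ppp3cb fragment ratio was 0.981, against 0.942 for the ratio of Camk2a to Camk2b, so the balance of the catalytic subunits was close in both samples.

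Ppp3r1 encodes the regulatory calcineurin B subunit (ENSMUSG00000033953, chromosome 11, 17159263 to 17200375, plus strand). It had 274 FPKM (272 to 275) in the posterior sample and 352 FPKM (349 to 355) in the anterior sample. By share it had 766 CPM in the posterior sample and 977 CPM in the anterior sample. The share was 1.28-fold higher in the anterior sample (1.26 to 1.29), a log2 difference of -0.35, and the FPKM difference was -0.99. Of the exonic bases of Ppp3r1, 14.3% overlapped 1 other gene, and reads there could have been split in different ways by each pipeline. Against the A subunit genes summed, Ppp3r1 fragments came to 0.4998 in the posterior sample and 0.554 in the anterior sample. By FPKM that ratio was 0.618 in the posterior sample and 1.62 in the anterior sample, and 0.685 in the anterior sample on the posterior lengths. The excess of B over A in the anterior sample was thus seen only with the deposited lengths.

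Ordered by FPKM in the posterior sample, Camk2a was followed by Ppp3ca, Camk2n1, Ppp3r1, Camk2b, Ppp3cb, Camk2g, Camkk2, Camk2d and Camk4. In that order Ppp3cb and Camk2g had overlapping counting intervals, as had Camkk2 and Camk2d. In the anterior sample the order was Camk2n1, Camk2a, Ppp3r1, Ppp3ca, Camk2b, Camk2g, Ppp3cb, Camkk2, Camk4 and Camk2d, with no overlap of intervals between neighbours. Dividing the anterior fragments by the posterior lengths placed Camk2a first at 608.2, Camk2n1 next at 597.5 and Ppp3ca after them at 400.5. These values were scaled to the recovered total of 43558839 fragments. The deposited FPKM used another total, so only the order can be set beside it. Camk2d was last in the anterior sample on those lengths too, at 31.85.

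The posterior table resolved these genes into transcripts, which the anterior table did not. Transcript shares are percent of the TPM, a length-scaled transcript abundance, of the gene and carry no interval, since the estimation error of the quantifier was not used here. Over 12078 genes with at least 2 annotated transcripts the median share of the leading transcript was 68.4%. Of the 9 genes here with at least 2 annotated transcripts, 7 had a leading transcript with at least 50% of the TPM, near the 74.1% of all such genes. Camk2n1 has a single transcript. Counted with it, the genes past 50% numbered 8 by TPM, and 9 by fragments or by annotated length.

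The genes of the alpha and beta subunits each rested on 1 transcript. Camk2a-203 held 90.7% of Camk2a TPM and 94.7% of its fragments, and Camk2b-209 held 86.4% of Camk2b TPM. A leading share below that of Camk2a was found in 78.7% of genes. Camk4-201 held 94.3%, Camkk2-201 held 74.3%, and Ppp3r1-201 held 99.4% of the TPM of their genes. The sole transcript Camk2n1-201 held 100.0%.

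The genes of the delta and gamma subunits were spread over many transcripts. Camk2d had 28 annotated transcripts, 20 of them above 0, and 8 were needed to reach 90% of its TPM. Camk2d-206 led with 48.4%, followed by Camk2d-217 with 15.2%, a retained-intron transcript of 618 bases that rested on 345 fragments. In all, protein-coding transcripts held 71.9% of Camk2d TPM but 89.5% of its fragments, and the median over genes was 89.9% of TPM. Camk2g had 17 annotated transcripts, 16 of them above 0, and needed 9 to reach 90%. Its leader by TPM, Camk2g-212 with 24.4%, is an incomplete annotation of 673 bases and held 4.87% of the fragments. Camk2g-201, a complete transcript, held 22.4% of TPM and 39.6% of fragments, and Camk2g-203 held 18.05% of TPM. By TPM a leading share below that of Camk2g was found in 1.90% of genes, so few genes were as divided by that measure. That comparison rests on Camk2g-212, and it was not made by fragments.

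The catalytic calcineurin genes each used a pair of main transcripts. Ppp3ca-202, of 4758 bases, held 54.0% of Ppp3ca TPM, and Ppp3ca-201, of 2194 bases, held 44.9%. By fragments Ppp3ca-202 held 73.7%. Ppp3cb-205 held 59.99% of Ppp3cb TPM and Ppp3cb-202 held 27.9%. The Ppp3cb transcripts also divided at a splice site 3 bases apart: 35.9% of TPM carried the longer form of an exon, of 85 bases, and 64.1% the shorter form, of 82 bases.

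**Figure D4:**
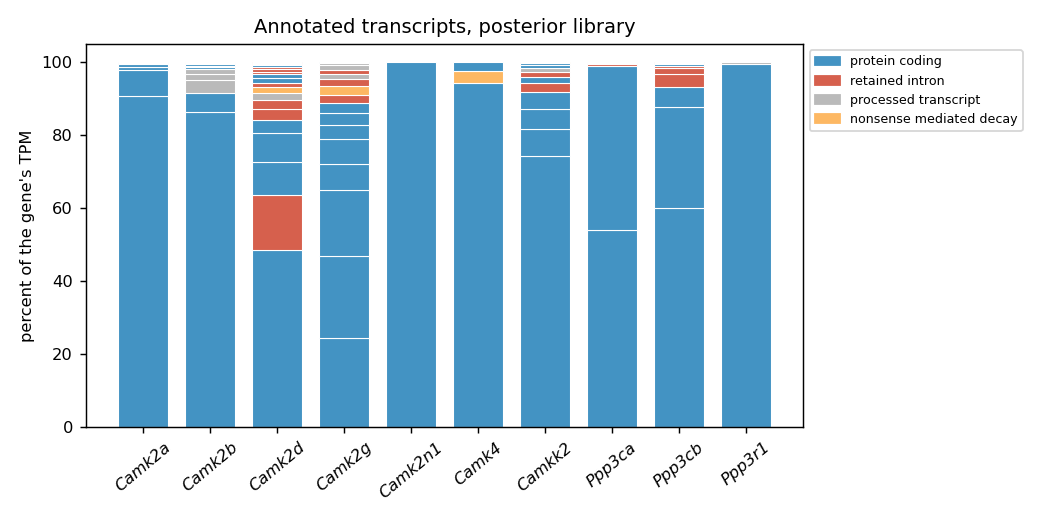
Percent of each gene's TPM in its transcripts in the posterior sample. Camk2n1, Ppp3r1, Camk4 and Camk2a are nearly filled by 1 transcript, whereas the leading transcript holds 48.4% in Camk2d and 24.4% in Camk2g.

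Most known variety of CaMKII transcripts lies in exons that encode the linker between the kinase domain and the domain that assembles the holoenzyme. A 33-base exon there is known as a nuclear localization signal: with it, the delta-B and gamma-A forms enter the nucleus. The exons of Camk2d and Camk2g are printed 5′ to 3′ on the gene's strand because they are near copies whose use differed greatly between the genes. Capitals mark the leading codons for lysine or arginine, 3 in each. The Camk2d exon lies at chr3:126802937-126802969 (plus strand) and the Camk2g exon at chr14:20747819-20747851 (minus strand), in GRCm38.
Camk2d 33-base exon: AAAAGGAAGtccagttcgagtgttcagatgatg
Camk2g 33-base exon: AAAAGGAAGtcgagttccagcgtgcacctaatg
The exons were identical at 26 of 33 positions. Transcripts with the exon held 1.29% of TPM of the transcripts that span it in Camk2d and 59.6% in Camk2g. By fragments these shares were 1.12% in Camk2d and 52.3% in Camk2g. The 33-base exon of Camk2a, known from the alpha-B form, was at 7.95% of TPM and 4.87% of fragments. Of the Camk2g TPM with the exon, the incomplete Camk2g-212 held the most. Without that transcript the Camk2g exon was at 44.7% of TPM and 49.7% of fragments, and with complete transcripts only at 52.5% and 50.8%. The exon was therefore rare in Camk2d, and near an even division in Camk2g once that transcript was set aside.

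Another exon pair lies farther along the linker of Camk2b (45 bases, chr11:5981070-5981114, minus strand) and Camk2d (42 bases, chr3:126808208-126808249, plus strand). They are shown because transcripts that include them held most of the spanning TPM in each gene, and because they share their first part. Capitals mark the positions that differ within the first 27 bases, of which 22 were identical.
Camk2b 45-base exon: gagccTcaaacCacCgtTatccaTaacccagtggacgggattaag
Camk2d 42-base exon: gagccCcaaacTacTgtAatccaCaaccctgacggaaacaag
Transcripts with the exon held 94.1% of the spanning TPM in Camk2b and 73.2% in Camk2d, and 97.2% and 86.3% of the fragments. With protein-coding transcripts only, the TPM shares were 94.07% in Camk2b and 91.94% in Camk2d, so most of the gap was not seen there. Of the other linker exons, the 75-base exon of Camk2b was in 93.3% and the 60-base exon of Camk2d in 89.4% by TPM. The 69-base exon of Camk2g was in 48.9% by TPM and 62.5% by fragments, and in 67.0% and 65.8% without Camk2g-212. Other alternative exons of Camk2b were almost always skipped: by TPM its 33-base exon was at 0.725%, its 114-base exon at 0.411% and its pair of 129-base exons at 0.460% and 0.847%. That 33-base exon is not a near copy of the exons of this length printed above: it matched that of Camk2d at 7 positions and that of Camk2g at 9. In Camk2g a 114-base exon was at 12.9% of TPM and 7.39% of fragments. A 63-base exon of Camk2g was at 33.3% of TPM and 6.54% of fragments, and at 0% with complete transcripts only. Each Camk2b exon was thus either nearly always or almost never included, while the 33-base and 69-base exons of Camk2g lay between.

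Camk2d also has a pair of mutually exclusive exons of 73 bases upstream of the linker exons. The first lies at chr3:126770785-126770857 and the second at chr3:126771774-126771846, both on the plus strand. They are shown because 1 replaces the other in the same transcript, and capitals mark where they differ.
Camk2d first 73-base exon: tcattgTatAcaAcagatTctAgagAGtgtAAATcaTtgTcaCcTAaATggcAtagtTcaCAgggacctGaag
Camk2d second 73-base exon: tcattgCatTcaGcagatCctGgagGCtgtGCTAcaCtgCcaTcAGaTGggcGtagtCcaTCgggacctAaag
They were identical at 50 of 73 positions. The first was in 87.8% of the TPM and 93.8% of the fragments, and the second in 12.2% of the TPM and 6.22% of the fragments. Camk2d in the posterior sample was thus mostly of the form with the first exon.

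The calcineurin A genes share a cassette exon of 30 bases near the 3′ end of the coding sequence. It lies at chr3:136932011-136932040 (plus strand) in Ppp3ca and at chr14:20503247-20503276 (minus strand) in Ppp3cb. The exons are shown because they are near copies that were not used alike, and capitals mark the positions that differ.
Ppp3ca 30-base exon: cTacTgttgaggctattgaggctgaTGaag
Ppp3cb 30-base exon: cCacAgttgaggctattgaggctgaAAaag
The exons were identical at 26 of 30 positions. Transcripts with the exon held 45.4% of spanning TPM in Ppp3ca and 99.5% in Ppp3cb, and 26.2% and 99.6% of fragments. In Ppp3ca it was in the short transcript Ppp3ca-201 and absent from the long Ppp3ca-202, so its share followed those of the transcripts. Skipping was the larger form in Ppp3ca by either measure and rare in Ppp3cb.

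**Figure D5:**
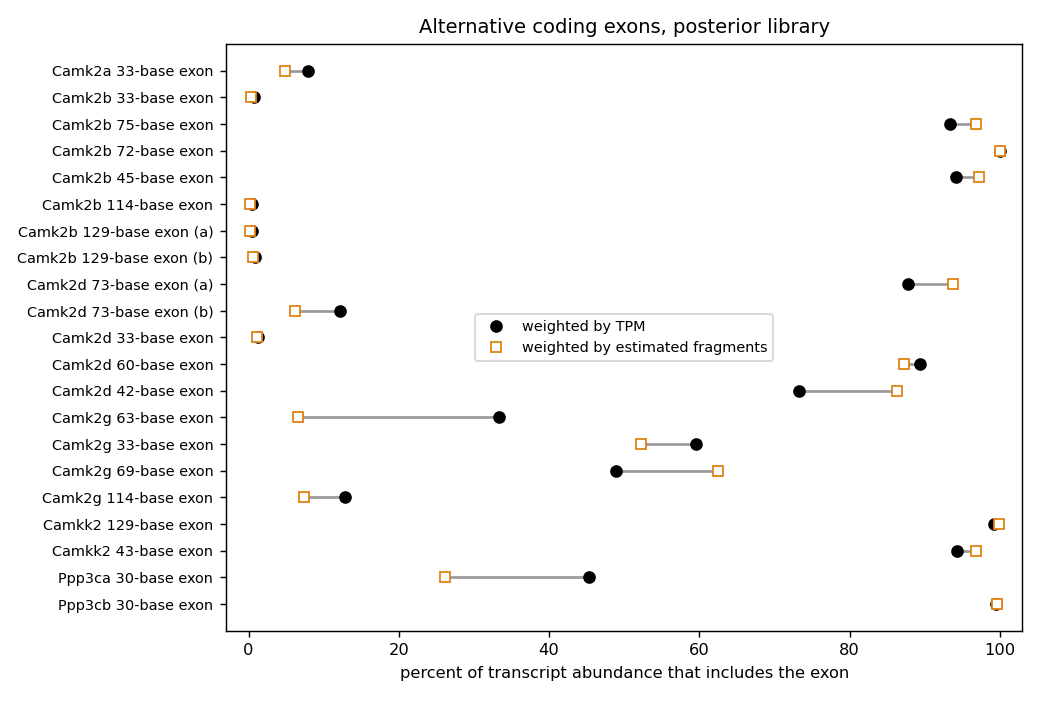
Percent of the abundance of spanning transcripts held by those that include each alternative exon in the posterior sample, by TPM and by fragments. The 33-base exon is at 1.29% in Camk2d and 59.6% in Camk2g by TPM, and the 30-base exon at 45.4% in Ppp3ca and 99.5% in Ppp3cb.

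By share, 8.19% of all genes compared were 2-fold higher in the posterior sample and 1.84% in the anterior sample, the background for the lists below. Of 10 other CaM kinase genes, 0 were at least 2-fold apart by share in either direction, near that background, and their median log2 difference was -0.18. The most abundant was Camkv, a kinase-like protein without kinase activity, at 122.5 FPKM in the posterior sample and 136 FPKM in the anterior sample. Of 6 genes for other CaMKII inhibitors, anchors and phosphatases, 0 were 2-fold apart by share, with a median of -0.03. Camk2n2, the second inhibitor gene, was the most abundant of them at 84.4 FPKM in the posterior sample and 66.0 FPKM in the anterior sample.

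Of 9 calcineurin partner genes, 8 passed the filter and 1 was 2-fold higher in the anterior sample. That was Chp2, a relative of calcineurin B, with 71 fragments in the posterior sample and 69 in the anterior sample, and a log2 difference of -1.05. Without the pseudocount the posterior over anterior ratio of its shares was 0.325 (0.230 to 0.459). The most abundant in the posterior sample was the calcineurin regulator Rcan2, at 83.6 FPKM there and 48.95 FPKM in the anterior sample. In the anterior sample it was Chp1, another relative of calcineurin B, at 55.0 FPKM in the posterior sample and 56.7 FPKM in the anterior sample. The median of the 8 was -0.24, so most of these genes also lay a little below the median gene.

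Of 8 genes for calmodulin and its small buffers, 7 passed the filter and 2 were higher by a factor of 2 or more in the posterior sample. Pcp4, a small protein that binds calmodulin, had 747.5 FPKM in the posterior sample and 31.01 FPKM in the anterior sample. Its share was 10.6-fold higher in the posterior sample (9.97 to 11.2), a log2 difference of 3.38. Calml4, a calmodulin-like gene, had 385 fragments in the posterior sample and 1 in the anterior sample, a ratio of shares of 121.5 with a counting interval of 21.7 to 4812. With the pseudocount its log2 difference was 2.68. Calm2, 1 of the calmodulin genes, was the most abundant, at 1042 FPKM in the posterior sample and 1163 FPKM in the anterior sample.

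Of 14 genes for transcription factors and coactivators that CaM kinases or calcineurin act on, 12 passed the filter, with 6 above 0 and 6 below and a median of 0.06. The neuronal factor Mef2c was the most abundant, at 122 FPKM in the posterior sample and 79.4 FPKM in the anterior sample. It was also the 1 gene of the list 2-fold apart by share, higher in the anterior sample at a log2 difference of -1.02. By FPKM the difference was -0.01, after centring on the median gene. The list therefore had no common direction on the fragment share scale.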

How the data were processed

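Polyadenylated RNA of mouse brain was sequenced in 2 libraries, 1 for each position, named from the labels' protocols. For the anterior sample the authors deposited FPKM per gene, from reads aligned with HISAT2 2.0.5 to mm10, per the submitters' processing notes. For the posterior sample the authors deposited TPM and estimated counts per transcript, made with Salmon on mm10, per the submitters' processing notes. The counting program, annotation, strand setting and Salmon version were not given in the sources used here.

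Posterior FPKM was computed from the estimated counts, effective lengths and their total. Anterior fragments were recovered from FPKM times gene length, which was a whole multiple of 27.4 for 100.0% of 54532 genes within 0.001. The recovered total of 43558839 fragments would give a smaller multiple, so the deposited FPKM rest on a smaller total, whose makeup is unknown. Deposited anterior FPKM are thus higher than the recovered total would give, by the same factor for all genes. Fragment shares used protein-coding totals of 134495505 in the posterior sample and 42447919 in the anterior sample. Fold intervals are Clopper-Pearson (95%) and level intervals exact Poisson. Calculations used Python 3.11.15, numpy 2.4.6, pandas 2.3.3 and scipy 1.17.1, and were tested on simulated data. Exons and sequences came from GENCODE M21 on GRCm38, the build named mm10.

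The members and lists were chosen with earlier results of these data known. All 10 genes are named. Of the pathway lists, genes 2-fold apart on both scales and the most abundant gene of each are named. Of the transcripts, the leading one and those with at least 10% are named. A few further exons and splice sites were named after their values were seen. Alternatives changed the scale, pseudocount, filter, centring, library total, transcripts summed and lengths.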

Additional observations from a re-analysis of the deposited data

How the results depend on the processing

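With 1 library at each position no replicate could be left out. No paired analysis was possible because each position had 1 library. On the FPKM scale 1 of the 10 genes was 2-fold higher in the posterior sample and 2 in the anterior sample, the median was -0.18, and 4 of 10 genes changed sign. Under the other 9 settings 0 genes changed sign, of 10 genes in 8 of them and of 9, without Camk4, with equal gene models. The median was -0.27 with an FPKM of at least 5 and -0.19 with only protein-coding transcripts summed in the posterior sample. With genes of equal model only, chosen after seeing the data, 0 were 2-fold higher in the anterior sample by share and the median of 9 was -0.25. Camk2a held 66.98% of CaMKII in the posterior sample by fragments, 59.43% with annotated lengths and 59.82% with coding transcripts; in the anterior sample it held 67.95% by fragments and 57.20% with posterior lengths, the last chosen after seeing the data. Ppp3ca held 76.10%, 73.85% and 74.51% of calcineurin A in the posterior sample under the same settings, and 76.37% and 73.68% in the anterior sample. Over all genes, those 2-fold higher numbered 1092 in the posterior sample and 246 in the anterior sample by share, and 1933 and 949 by FPKM. They were 629 and 112 with an FPKM of at least 5. The count in the anterior sample was 161 with a pseudocount of 2, and 647 with only protein-coding transcripts summed in the posterior sample. That last setting took fragments from the posterior sample alone and left the anterior fragments whole, so it can only lower the posterior fragments of a gene. Leaving out Camk2g-212 or incomplete transcripts, both chosen after seeing the data, moved inclusion of the Camk2g exons as given above. The cause of these changes was not tested. Transcript shares carry the estimation error of the quantifier, and depth limits low-count genes such as Chp2 most.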
